A study of Mus musculus with 30 samples.

Results

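The response of mouse embryonic stem (mES) cells to 4 h without SRCAP was described from 4 of the 30 nuclear RNA-seq libraries of the series, the 2 SYAT control libraries and the 2 SYAT libraries taken after 4 h of IAA. They were chosen by condition, from the library names and labels, and not by any measured value. SYAT cells derive from CGR8 mES cells, carry YPet-AID on both copies of Srcap and express OsTir1, so that the auxin IAA (500 µM) leads to degradation of the SRCAP protein. The SYAT control cells received auxinole, an inhibitor of Tir1, so the contrast sets IAA against auxinole. SYAT libraries after 2, 6 and 8 h of IAA (2 each) entered the same fit and share its estimate of spread. The matched 4 h experiments were made in parental CGR8 cells, which have neither degron nor Tir1, and in 2 SYAT sublines. The CGR8 control is named NT, and no auxinole is recorded for it. The sublines express SRCAP-mCherry from a doxycycline-inducible transgene, as wild type (wtSRCAP) or catalytically dead (cdSRCAP). In both sublines doxycycline was given in the IAA arm and in the control arm. Per the paper's Methods, the subline controls were left in auxinole, and cells of both arms were sorted by mCherry signal directly before the assay. Each group had 2 libraries, described in the Methods as biological duplicates, and each subline is a single line. The study's reporting summary states, for its experiments in general, that replicates came from cells cultured and treated separately.

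SRCAP is the ATPase of a chromatin remodelling complex that exchanges H2A for the variant H2A.Z in nucleosomes, above all next to transcription start sites. H2A.Z marks the promoters and enhancers of active genes and the promoters of developmental genes that ES cells hold in a poised state. The comparison asks which genes differ within hours of losing the ATPase.

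The 4 libraries held between 19231849 and 22873893 counts in the exon columns and between 19387499 and 24591096 in the intron columns. Among the 10 time course libraries, replicate 2 of 6 h stood apart, with an exon TMM scaling factor of 0.854 against 0.966 to 1.08 in the other 9. It is not part of the contrast but enters its estimate of spread, so counts of calls are also given without it, a choice made after the data were seen. Markers of mES cells summed to between 2421 and 3093 CPM (counts scaled to library depth) in the controls and between 2686 and 3354 at 4 h, and all 10 were detected. Markers of 2-cell-like cells summed to at most 1.09 CPM in any of the 4 libraries, with Tcstv1 and Tcstv3 at 0. Primitive endoderm markers lay at 378.6 to 415.4 CPM in controls and 425 to 467.9 CPM at 4 h, trophoblast markers at 99.9 to 150.8 and 139.2 to 181.5 CPM, and fibroblast markers at 51.2 to 72.5 and 55.9 to 72.5 CPM with Postn at 0. None of the tested genes in these lists was called, with medians of the log2 fold change of 0.11 for mES, 0.21 for primitive endoderm, 0.25 for trophoblast and 0.45 for fibroblast markers, and no 2-cell-like gene passed the low-count filter. In replicate 1 and replicate 2 taken alone the medians were 0.20 and 0.50 for trophoblast and -0.07 and 0.35 for fibroblast markers. Without replicate 2 of 6 h Nanog, Eomes, Gata3 and Twist1 of these lists were called higher. The part of these other cell types in the results was not tested, and in bulk RNA fewer cells of a type and less RNA per cell cannot be told apart.

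The targeted gene was examined first. Srcap (ENSMUSG00000053877.12, chr7:127511983-127561219, plus strand, mm10) had normalized exon counts of 815 and 936 in the controls and 975.7 and 965.4 after 4 h of IAA. Both 4 h libraries lay just above both controls, and the log2 fold change of 0.15 ± 0.13 (SE) did not pass the test (adjusted p = 0.664, edgeR's quasi-likelihood test). Since the degron acts on the protein, the transcript level does not report on the loss of SRCAP.

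After 4 h of IAA, the lower genes included members of the zinc finger and primary cilium lists, such as Zik1, Zfp454, Kif3b and Tctn3, and the higher genes included the developmental factors Tbx20 and Zfp423 and the ligand Bmp4. In the exon columns 19205 genes were tested, and a gene was called where the absolute log2 fold change exceeded 0.5 at an adjusted p under 0.05 (edgeR's quasi-likelihood test with Benjamini-Hochberg adjustment, replicate number as a block). By this rule 49 genes fell (0.255% of the genes tested) and 27 rose (0.141%), with log2 fold changes from -2.39 to -0.68 and from 0.63 to 2.15. Their adjusted p-values, between 0.0452 and 0.0498, all lay just under the threshold, and 2716 genes had an unadjusted p under 0.05. Without replicate 2 of 6 h, 858 genes were called lower (4.47%) and 409 higher (2.13%), and all 49 and 27 genes were among them. The counts were 824 (4.29%) and 422 (2.2%) without both 6 h libraries, and 213 (1.65%) and 136 (1.05%) by DESeq2 with the block, which called 46 of the 49 and 25 of the 27. Without the replicate block no gene was called in either direction by edgeR (1745 at an unadjusted p under 0.05). All 49 and 26 of the 27 had an unadjusted p under 0.05 in that fit, and each kept its sign. These genes were picked from the same counts, so this is no independent support. DESeq2 without the block called 89 lower and 27 higher, with 46 of the 49 and 12 of the 27 among them. Leaving out any 1 of the 4 libraries also left 0 calls in edgeR, with 1254 to 1557 genes at an unadjusted p under 0.05.

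In all 49 lower genes both 4 h libraries lay below both controls, and in all 27 higher genes both lay above. Of all genes tested, 24.1% lay below and 21.7% above in this way, so this separation is common among the genes tested. All 76 genes are protein coding, against 74.2% of the genes tested. Their median level in the controls was 3.31 RPKM (reads scaled to exon length and library depth) for the lower and 3.44 RPKM for the higher genes, beside 2.52 RPKM over all genes tested. An annotated gene on the opposite strand overlaps 16 of the 49 and 12 of the 27, beside 8320 of the 19184 annotated genes tested. Such overlap is thus common among all genes tested, and reads may be shared where counting ignored strand. Chromosome 2 holds 8 of the 49, but its share of all genes tested was not computed, so no enrichment can be read from this count.

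**Figure D1:**
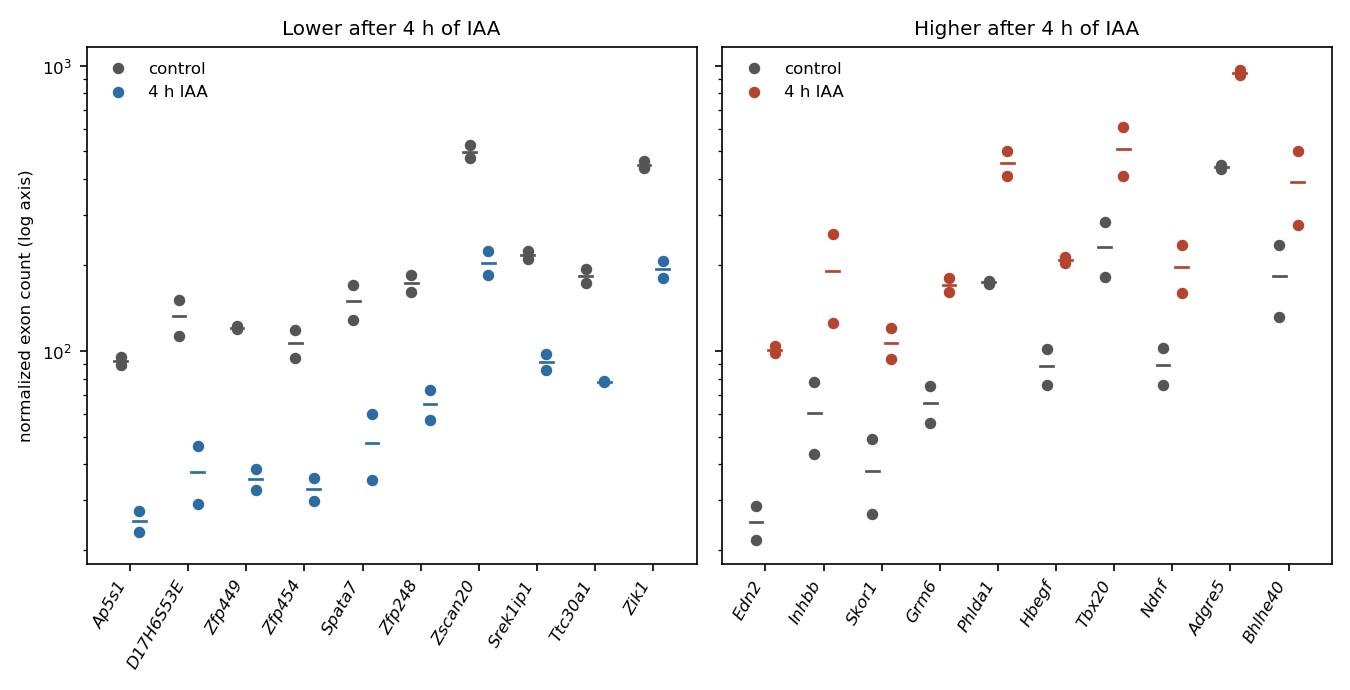
Normalized exon counts (log axis) of the 10 leading lower genes (left) and the 10 leading higher genes (right) in each of the 2 control and 2 IAA libraries at 4 h. Points are libraries and dashes are means of 2, and for every gene shown the libraries of the 2 groups do not overlap.

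Zinc finger genes recurred among the lower genes. Of the 49, 8 (16.3%) are named Zfp, Zscan or Zik1, against 2.06% of all genes tested, a count by name that was made after the values were seen. Zscan20 (ENSMUSG00000061894.15, chr4:128583539-128610098, minus strand) encodes a zinc finger protein with a SCAN domain. It had normalized exon counts of 472.7 and 526.7 in controls and 183.9 and 223.6 at 4 h, so that the highest 4 h library lay far below the lowest control. Its log2 fold change was -1.30 ± 0.14 (SE, adjusted p = 0.0452). Zik1 (chr7:10487229-10495394, minus strand), a zinc finger gene of the KRAB class, had 461.3 and 438 in controls and 207 and 180.7 at 4 h (log2 fold change -1.22 ± 0.14). Zfp449, Zfp454 and Zfp248 lay lower still relative to their controls, with log2 fold changes of -1.77 ± 0.28, -1.68 ± 0.27 and -1.42 ± 0.20. The largest decrease of the 49 was that of Zfp677, from 54.8 and 61.6 to 14.3 and 8.57 normalized counts (-2.39 ± 0.39), a weakly expressed gene.

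KRAB zinc finger proteins bind DNA through arrays of zinc fingers and recruit TRIM28 to silence transposable elements, and many lie in large gene clusters. In a list of 78 tested zinc finger genes, almost all of the KRAB class, 5 fell (Zfp248, Zfp354c, Zfp449, Zfp454 and Zik1) and none rose. Without replicate 2 of 6 h, 33 were called lower and 0 higher. Of the 78, 64 had a log2 fold change below 0 with a median of -0.51, against 9241 of 19205 genes and a median of 0.01 over all genes tested. The gene lists, this one and those below, were chosen with earlier results of these data known, so their shifts are descriptions and not tests. Zfp82 stood at the other end of the list with a log2 fold change of 1.64, which did not pass the test. Trim28 itself had 40136 and 47963 normalized counts in controls and 43896 and 51419 at 4 h, with overlapping groups and a log2 fold change of 0.12 ± 0.21 (adjusted p = 0.86).

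Genes of the primary cilium formed another part of the lower genes. Cilia are built by intraflagellar transport (IFT) trains that kinesin-2 carries to the tip, the BBSome sorts membrane proteins along them, and the transition zone at the base gates their entry. Kif3b, a motor subunit of kinesin-2, had 586.4 and 562.1 normalized counts in controls and 292.9 and 264.7 at 4 h. The groups were well apart, and the log2 fold change was -1.04 ± 0.16 (adjusted p = 0.0473). Ttc30a1, a subunit of the IFT-B complex, had 172.7 and 193.3 in controls and 78.2 and 78 at 4 h (-1.23 ± 0.20). Tctn3 (ENSMUSG00000025008.15, chr19:40596446-40612233, minus strand), a tectonic of the transition zone, had 190.3 and 157 in controls and 78.2 and 72 at 4 h (-1.21 ± 0.19). Spata7, known from the connecting cilium of photoreceptors, had 128.3 and 170.5 in controls and 35.2 and 60 at 4 h (-1.65 ± 0.26), and it overlaps the annotated genes Gm47370 and Gm47372, so its reads may be shared.

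Of the cilium lists, 2 of 31 IFT genes (Kif3b and Ttc30a1) and 1 of 22 transition zone genes (Tctn3) fell, while 0 of 13 BBSome genes passed the test. The medians of the 3 lists were -0.36, -0.54 and -0.46, with 28 of 31, 19 of 22 and 12 of 13 genes below 0. The BBSome genes nearest to the threshold were Bbs1, with 98.3 and 120.7 normalized counts in controls and 43 and 40.3 at 4 h (log2 fold change -1.39 ± 0.30, adjusted p = 0.0753), and Bbs5, with 92 and 98.8 in controls and 36.3 and 26.6 at 4 h (-1.62 ± 0.32, adjusted p = 0.0618). In both the groups did not overlap. Without replicate 2 of 6 h, 9 IFT genes, 10 transition zone genes and 6 BBSome genes (Bbs1, Bbs4, Bbs5, Bbs10, Lztfl1 and Ttc8) were called lower and none higher. Centrosome genes had a median of -0.13 with 0 of 29 called, and 5 called lower without that library. BLOC-1, a complex of endosome and lysosome-related organelle biogenesis, had 8 of 8 genes below 0 and a median of -0.43, but none passed, and Bloc1s4 and Bloc1s6 were called lower without replicate 2 of 6 h.

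Several other lower genes serve the secretory and degradative membranes of the cell. Sel1l, the scaffold of a ubiquitin ligase in endoplasmic reticulum-associated degradation, had 1602 and 1425 normalized counts in controls and 906.3 and 745.2 at 4 h (log2 fold change -0.88 ± 0.11). Erlin2, of the same degradation pathway, had 1630 and 1674 in controls and 1032 and 897.7 at 4 h (-0.78 ± 0.11). The golgins Golgb1 and Golga3 were the most strongly counted, Golgb1 with 2436 and 2878 in controls and 1672 and 1634 at 4 h (-0.68 ± 0.10), and Golga3 at -0.68 ± 0.10 as well. Ctns, the lysosomal cystine transporter, had 358.9 and 381.5 in controls and 177.3 and 159.3 at 4 h (-1.14 ± 0.16). In each of these genes the 4 h libraries lay below both controls, and the genes of this paragraph were grouped by known role after their values were seen.

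Other leading lower genes were Ap5s1, D17H6S53E and Srek1ip1. Ap5s1, a subunit of the AP-5 adaptor complex, had 95.2 and 89.5 normalized counts in controls and 23.1 and 27.4 at 4 h (log2 fold change -1.85 ± 0.28). D17H6S53E had 151 and 113.1 in controls and 46.3 and 29.1 at 4 h (-1.83 ± 0.22). Srek1ip1 (-1.23 ± 0.20), whose product binds a splicing regulator, lies antisense to Cwc27, and as the strand setting of the counting is not given in the sources used here, reads of the pair may be mixed. Further members of the 49 were Usp30, a deubiquitinase of mitochondria (-1.08 ± 0.14), Mavs, the adaptor of cytosolic RNA sensing (-0.98 ± 0.16), and Disp1, which releases Hedgehog ligands (-0.91 ± 0.14).

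Among the higher genes were several secreted ligands. Edn2, an endothelin, had 21.7 and 28.7 normalized counts in controls and 98 and 103.6 at 4 h. This was the largest increase among the genes with a mean of at least 50 normalized counts, at a log2 fold change of 2.00 ± 0.27 (adjusted p = 0.0452). Inhbb, the beta B subunit of activins and inhibins, had 43.4 and 77.7 in controls and 125.5 and 256.1 at 4 h (1.64 ± 0.22), with replicate 2 above replicate 1 in each group. Bmp4, a ligand of the bone morphogenetic protein pathway, had 187.2 and 252.4 in controls and 331.5 and 525.1 at 4 h (0.94 ± 0.14). Hbegf, a ligand of the EGF receptor, and Ndnf, a secreted factor, followed with log2 fold changes of 1.24 ± 0.19 and 1.14 ± 0.18.

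Higher genes for cell surface proteins included Adgre5, an adhesion receptor also called CD97, with 449.9 and 434.7 normalized counts in controls and 927.2 and 961.1 at 4 h (log2 fold change 1.09 ± 0.14). Adgre5 overlaps Ddx39 on the opposite strand. F2r, the thrombin receptor, rose from 1336 and 1189 to 2373 and 1936 (0.77 ± 0.10), and Nrp2, a co-receptor of semaphorins and vascular endothelial growth factors, from 1150 and 1001 to 2101 and 1895 (0.90 ± 0.12). Grm6, a metabotropic glutamate receptor, changed by 1.39 ± 0.22 from 75.5 and 55.7 to 180.6 and 161. Robo3 and Slc15a1, with control counts near 10, had the largest fitted changes of the 27, at 2.15 ± 0.34 and 2.08 ± 0.34.

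Zfp423 (ENSMUSG00000045333.15, chr8:87661810-87959595, minus strand), a transcription factor of neural and adipose development, was the zinc finger gene among the 27. Its normalized counts were 1076 and 1142 in controls and 2133 and 2274 at 4 h, so that both replicates about doubled, with a log2 fold change of 0.99 ± 0.10 (adjusted p = 0.0452). Tbx20, a T-box factor of heart development, had 282.4 and 181.5 in controls and 609 and 408.6 at 4 h (1.14 ± 0.16). Bhlhe40, a repressor linked to the circadian clock, had 234.8 and 131.7 in controls and 502.2 and 276.7 at 4 h (1.08 ± 0.15), and Skor1, a transcriptional corepressor, had 26.9 and 49 in controls and 93.6 and 119.9 at 4 h (adjusted p = 0.0473). In Tbx20 and Bhlhe40 replicate 1 was the higher of the pair in both groups. Irf1, Hmga2 and Jade2 rose by less, at 0.67 ± 0.10, 0.78 ± 0.11 and 0.63 ± 0.10.

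Promoter windows of RefSeq (250 bases before to 50 after the start, GRCm38.p6) were matched by symbol to 36 of the 49 lower genes, 17 of the 27 higher genes and 11832 of 19198 symbols tested. Their G+C content had medians of 59.8% for lower, 64% for higher and 60.7% for all windows, and the median ratio of observed to expected CpG was 0.721, 0.685 and 0.745. The CCAAT box, searched as CCAAT on both strands, was present in 19 of 36 lower windows (52.8%) and in 3 of 17 higher windows (17.6%), beside 38.7% of all windows. The GC box GGGCGG was present in 58.3%, 76.5% and 63.2%, and the ETS core CCGGAAG in 19.4%, 5.88% and 16.9%. The window lay far from the outermost annotated start of the gene for 3 of the lower genes, by 34872 bases for Usp30, 24686 for Srek1ip1 and 3282 for Ap5s1, and these windows are counted in the shares. The shares are descriptions without a test, and a match is not a site of binding. The 250 bases before the start are printed 5′ to 3′ on the gene's strand for 4 members picked as examples. They are a zinc finger gene, a cilium gene, the ATF4 target Chac1 and the factor Zfp423. Zscan20 and Tctn3 are not typical of their groups in the number of CCAAT boxes. The windows of Zik1, Zfp677, Kif3b, Ttc30a1 and Spata7 hold 1 each, and that of Zfp454 holds 0. Capitals mark CCAAT or its reverse complement in Zscan20 (chr4:128610099-128610348) and Tctn3 (chr19:40612232-40612481), the amino acid response element TGATGNAA or its reverse complement in Chac1 (chr2:119350992-119351241), and GGGCGG in Zfp423 (chr8:87959596-87959845).
Zscan20: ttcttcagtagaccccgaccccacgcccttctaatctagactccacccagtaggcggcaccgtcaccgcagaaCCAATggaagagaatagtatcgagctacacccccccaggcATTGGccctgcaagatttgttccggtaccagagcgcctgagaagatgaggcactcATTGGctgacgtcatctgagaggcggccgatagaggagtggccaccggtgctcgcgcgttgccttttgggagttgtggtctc
Tctn3: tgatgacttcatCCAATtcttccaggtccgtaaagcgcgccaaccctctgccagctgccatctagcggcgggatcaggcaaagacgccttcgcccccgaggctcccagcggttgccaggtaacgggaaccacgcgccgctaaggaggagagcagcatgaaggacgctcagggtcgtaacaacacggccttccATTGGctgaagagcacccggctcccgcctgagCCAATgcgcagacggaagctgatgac
Chac1: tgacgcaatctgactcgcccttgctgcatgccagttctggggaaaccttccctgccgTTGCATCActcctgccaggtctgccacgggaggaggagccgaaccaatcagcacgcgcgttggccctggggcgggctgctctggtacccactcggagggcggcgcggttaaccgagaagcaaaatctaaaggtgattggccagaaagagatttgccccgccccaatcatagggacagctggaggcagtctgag
Zfp423: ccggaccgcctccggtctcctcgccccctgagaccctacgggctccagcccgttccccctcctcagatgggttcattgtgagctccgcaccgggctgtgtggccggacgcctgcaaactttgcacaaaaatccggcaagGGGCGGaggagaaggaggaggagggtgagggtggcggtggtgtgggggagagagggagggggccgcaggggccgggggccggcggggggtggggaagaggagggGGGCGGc
Zscan20 and Tctn3 each hold 3 CCAAT boxes in these bases, and Zfp423 holds 2 GC boxes. Chac1 holds 1 amino acid response element, which starts 193 bases before the start. This element lies in some position in 2.78% of lower windows and in 2.22% of all windows. Only 1 motif is marked per gene, and the window of Chac1 also holds 3 CCAAT and 3 GC boxes.

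**Figure D2:**
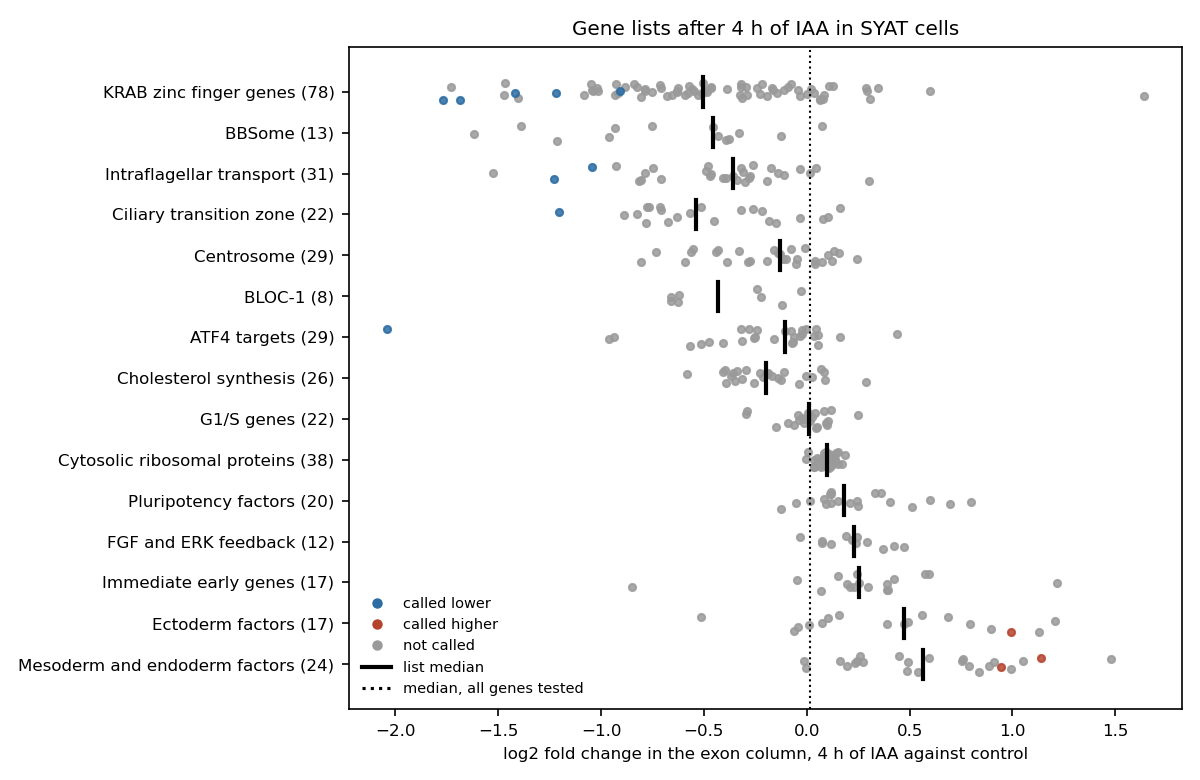
Log2 fold change in the exon columns at 4 h of IAA against control for each tested gene of 15 lists, with the number of genes in parentheses. Coloured points passed the test, vertical bars are list medians and the dotted line is the median of 0.01 over all genes tested. Zinc finger and cilium lists sit to its left and the mesoderm, endoderm and ectoderm lists to its right.

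Genes that mark the exit from pluripotency were followed next, since ES cells express pluripotency factors while genes of the germ layers are held at low levels. Of 24 mesoderm and endoderm factors tested, 2 rose (Bmp4 and Tbx20) and none fell, 22 lay above 0 and the median was 0.57. Gata3, a factor of trophoblast and other epithelia, had 31 and 28.7 normalized counts in controls and 66.1 and 102.8 at 4 h, without overlap, but the log2 fold change of 1.48 ± 0.28 missed the threshold (adjusted p = 0.0564). Meis1, a homeobox factor of blood and mesoderm, had 46.5 and 59.1 in controls and 100.2 and 99.4 at 4 h (0.91 ± 0.22, adjusted p = 0.102). Lefty2, an inhibitor of Nodal, had 1141 and 635.6 in controls and 2071 and 1043 at 4 h, where the groups overlap (0.79 ± 0.17, adjusted p = 0.0752). In CGR8 cells, which carry no degron, Lefty2 was called higher, from 662.2 and 489.2 to 1337 and 1309 (1.22 ± 0.20, adjusted p = 0.00714 in the joint fit of the lines). Gata6 stayed near 10 to 20 normalized counts, with 10.3 and 8.44 in controls and 23.1 and 16.3 at 4 h (1.05 ± 0.45, adjusted p = 0.33). Without replicate 2 of 6 h, 8 of the 24 were called higher, namely Bmp4, Eomes, Gata3, Lefty1, Lefty2, Meis1, Msx1 and Tbx20.

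Ectoderm factors had a median of 0.47 with 1 of 17 called higher (Zfp423), and Ebf1, Irx3 and Pax6 were among those also called higher without replicate 2 of 6 h. Pluripotency factors showed no decrease that passed the test. Their median was 0.18, 18 of 20 lay above 0 and none was called in either direction. Nanog, a core pluripotency factor, had 868.8 and 1496 in controls and 1464 and 2336 at 4 h. Control replicate 2 lay just above the lower 4 h library, while each replicate of 4 h lay above its control, and the log2 fold change was 0.69 ± 0.13 (adjusted p = 0.0546). Nanog was called higher in CGR8 cells as well, from 6402 and 5601 to 9438 and 9235 (0.64 ± 0.14, adjusted p = 0.0387 in the joint fit), and the difference of log2 fold changes, SYAT minus CGR8, was 0.07 ± 0.21. Zfp42, also called Rex1, had 2869 and 5395 in controls and 3425 and 6331 at 4 h (0.24 ± 0.11, adjusted p = 0.388). Myc had 1968 and 2040 in controls and 2358 and 2481 at 4 h (0.27 ± 0.11, adjusted p = 0.325). Nanog, Nr0b1, Nr5a2 and Prdm14 were called higher without replicate 2 of 6 h, Nanog also by DESeq2 with the block, and Nanog and Nr5a2 also in the joint fit of the lines. Without that library a call was also made for Fgf5 of the 16 formative and primed genes, whose median was 0.17.

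Signalling lists held no gene that passed the test, and their medians lay between 0.04 and 0.28. None of 14 LIF and CNTF receptor genes (median 0.15), 12 FGF and ERK feedback genes (0.23), 14 Nodal, BMP and Wnt targets (0.28), 17 immediate early genes (0.25) or 17 MAP kinase kinase and stress kinase genes (0.04) passed the test. Cntfr, the receptor of ciliary neurotrophic factor, came close, with 205.8 and 144.3 normalized counts in controls and 348 and 324.7 at 4 h (log2 fold change 0.95 ± 0.17, adjusted p = 0.0546). Fosl2, a subunit of AP-1, had 203.8 and 87.8 in controls and 392 and 256.1 at 4 h (1.22 ± 0.20, adjusted p = 0.0501). Map2k6, a kinase upstream of p38, had 191.3 and 205.9 in controls and 85.9 and 81.4 at 4 h (-1.25 ± 0.22, adjusted p = 0.0527). All 3 passed without replicate 2 of 6 h, with adjusted p-values of 0.000689, 0.000429 and 0.00108. Without that library the calls included Bcl3, Cntfr and Pim1 of the LIF and CNTF list, Sp5 of the Nodal, BMP and Wnt targets, Dusp1 and Fosl2 of the immediate early genes, and Gadd45a and Gadd45b of the stress kinase list, all higher, with Map2k6 and Map2k7 lower and none of the FGF and ERK list.

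Genes of growth and of the cell cycle gave no calls. The medians were 0.01 for 22 G1/S genes, 0.11 for 20 G2/M genes and 0.10 for 38 cytosolic ribosomal protein genes, of which 37 lay above 0 and none above 0.19, and none of these genes was called with or without replicate 2 of 6 h. The same was true of 18 p53 targets (median 0.00), 12 heat shock genes (0.12, with 0.22 in replicate 1 and -0.06 in replicate 2) and 24 Polycomb genes (0.17). Of 16 clock genes 1 rose (Bhlhe40) at a list median of -0.05, and Bhlhe41 was also called without replicate 2 of 6 h. Of 10 genes of the aryl hydrocarbon receptor pathway none passed (median 0.00), and the nearest was Cyp1a1, an enzyme that this receptor induces, with 794.3 and 833.1 normalized counts in controls and 466.9 and 451.4 at 4 h (-0.82 ± 0.17, adjusted p = 0.064). It was called lower without replicate 2 of 6 h (adjusted p = 0.00134), by DESeq2 with the block and in the joint fit. In CGR8 cells Cyp1a1 fell from 336.3 and 326.6 to 101.5 and 99.4 (-1.72 ± 0.19, adjusted p = 4.185e-05). Mitochondrially encoded genes took 10654 to 12026 CPM in controls and 11333 to 12265 CPM at 4 h, with 6 of 13 listed genes at 0 in all 4 libraries, 7 genes tested, 0 called and a median of 0.08 (0.32 in replicate 1 and -0.05 in replicate 2). Nuclear long noncoding RNAs had a median of 0.33 with 0 of 10 called, and of 0.08 in replicate 1 and 0.31 in replicate 2.

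The exchange machinery itself passed no test. Of 9 SRCAP complex genes 6 lay below 0 with a median of -0.11, and Dmap1 was lowest, with 556.4 and 574.8 normalized counts in controls and 352.4 and 361.5 at 4 h (log2 fold change -0.66 ± 0.16, adjusted p = 0.102). Of 19 genes for H2A.Z and its other exchange factors, none was called and the median was 0.07. H2afz, which encodes H2A.Z.1, had 11953 and 11191 in controls and 12327 and 12182 at 4 h (0.08 ± 0.24). H2afv, which encodes H2A.Z.2, had 1130 and 1121 in controls and 1046 and 997.9 at 4 h (-0.14 ± 0.24). Kat5, the acetyltransferase of the related TIP60 complex, had 693 and 747.8 in controls and 480.1 and 524.2 at 4 h, without overlap (-0.52 ± 0.14, adjusted p = 0.138), and it lies antisense to Rnaseh2c. Dmap1, Ing3 and Kat5 were called lower without replicate 2 of 6 h.

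Chac1 (ENSMUSG00000027313.3, chr2:119351229-119354381, plus strand), an enzyme that degrades glutathione and a target of the stress factor ATF4, fell from 97.2 and 59.1 normalized counts to 23.1 and 14.6 (log2 fold change -2.04 ± 0.31, adjusted p = 0.0473). It was the member called among 29 ATF4 targets, of which 23 lay below 0 with a median of -0.11. With replicate 2 of 6 h left out, 3 were called lower (Chac1, Mthfd2 and Slc7a1), while DESeq2 with the block called Mthfd2 and gave no adjusted p for Chac1. Atf4 itself had 1972 and 1526 in controls and 1264 and 1251 at 4 h (-0.47 ± 0.16, adjusted p = 0.206). Of 26 cholesterol synthesis genes, 21 lay below 0 with a median of -0.20, and none passed. Scd2, a fatty acid desaturase, was called lower without replicate 2 of 6 h (-0.58 ± 0.09, adjusted p = 0.00191), by DESeq2 with the block and in the joint fit, and it was called lower in CGR8 cells too (-0.57 ± 0.13). Chac1 was also lower in CGR8 cells, where it had 221.7 and 252.1 in controls and 37.8 and 20.7 after IAA (log2 fold change -3.06 ± 0.30, adjusted p = 1.1e-05 in the joint fit of the lines). In CGR8 cells 9 of the 29 ATF4 targets and 6 of the 26 cholesterol synthesis genes were called lower, with medians of -0.44 and -0.37.

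**Figure D3:**
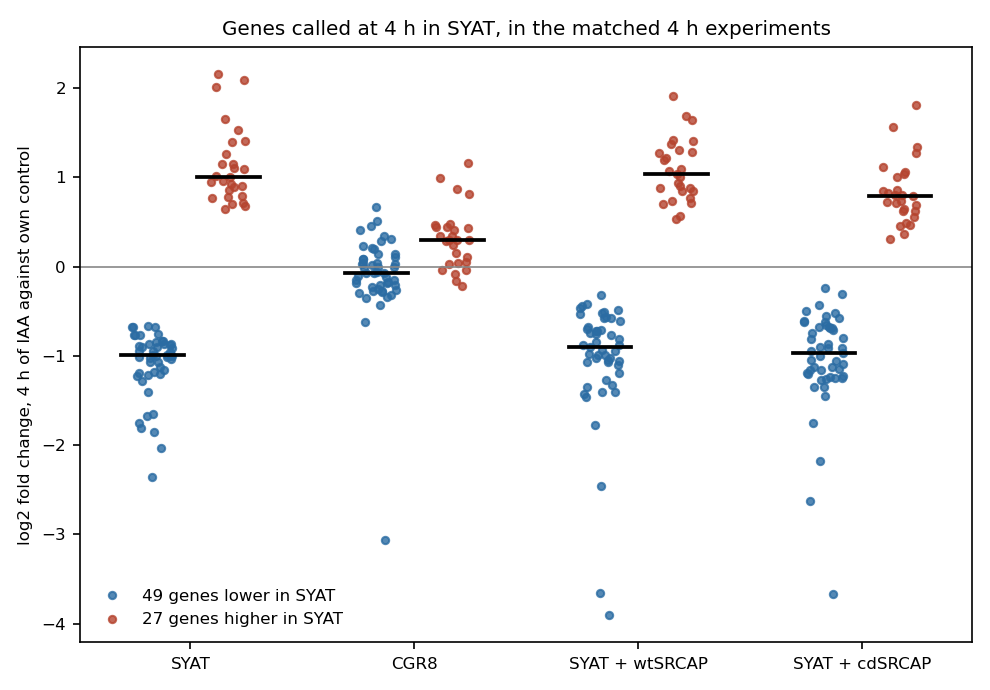
Log2 fold change of 4 h of IAA against the line's own control for the 49 lower and 27 higher genes in SYAT cells and in the 3 matched lines, all from 1 joint fit. Points are genes and bars are medians, which for the lower genes are -0.07 in CGR8, -0.90 in wtSRCAP and -0.97 in cdSRCAP cells. The SYAT columns show the contrast close to that by which the genes were chosen.

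The matched lines were set beside SYAT to ask which of these genes also moved in cells without degron and in cells with a SRCAP transgene. Their libraries had no part in the choice of the genes. In the joint fit 20849 genes were tested, of which SYAT had 1.11% called lower and 0.47% higher, CGR8 0.254% and 0.614%, wtSRCAP 2.59% and 2.75%, and cdSRCAP 2.58% and 1.06%. Of the 49 genes lower in SYAT, 1 was called lower in CGR8 (Chac1), 39 in wtSRCAP and 39 in cdSRCAP. Of the 27 genes higher in SYAT, 1 was called higher in CGR8 (Adgre5), 21 in wtSRCAP and 15 in cdSRCAP. The lower genes lay below 0 for 29 of 49 in CGR8 and for 49 of 49 in each subline, and the higher genes lay above 0 for 22 of 27 in CGR8 (median 0.30), for 27 of 27 in wtSRCAP (1.04) and for 27 of 27 in cdSRCAP (0.79). The table and, as recorded, the control treatment also differ between SYAT and CGR8, and their part cannot be told apart from that of the degron.

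Single genes show the pattern. Zscan20 had 869.5 and 846.1 normalized counts in CGR8 controls and 717.2 and 633.5 after IAA (log2 fold change -0.35 ± 0.16, adjusted p = 0.33). In cdSRCAP cells it had 746.9 and 779.8 in controls and 329.9 and 277.8 after IAA (-1.35 ± 0.17), and in wtSRCAP cells 797.9 and 626.3 against 460.9 and 312.4 (-0.90 ± 0.17). The fall seen in SYAT cells was also present in both sublines and did not pass in CGR8, but the difference between SYAT and CGR8 was not called either. Tctn3 had 207.3 and 304.9 in CGR8 controls and 242.3 and 273.6 after IAA (0.03 ± 0.22), against 264.3 and 352.8 and then 52.3 and 47.6 in cdSRCAP cells (-2.62 ± 0.26). Zfp423 had 1958 and 2100 in CGR8 controls and 2960 and 2445 after IAA (0.41 ± 0.15, adjusted p = 0.22), and it was called in wtSRCAP and cdSRCAP cells at 0.93 ± 0.16 and 0.80 ± 0.16. Adgre5 differed in that it rose in CGR8 cells too, from 688.1 and 897.2 to 1414 and 1453 (0.87 ± 0.16, adjusted p = 0.014).

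The difference between lines was tested as an interaction. Between SYAT and CGR8 cells 19 genes (0.0911%) had a lower and 5 (0.024%) a higher log2 fold change in SYAT, with 2254 genes at an unadjusted p under 0.05. Without the replicate block no gene passed (872 at an unadjusted p under 0.05), and none passed when any 1 SYAT library was left out. Among the 49 lower genes the difference was called for 5, Map9, Spata7, Zfp354c, Zfp454 and Zik1, and among the 27 higher genes for Inhbb. It was not called for Zscan20, Tctn3, Zfp423 or Adgre5, and for Tctn3 it was -1.22 ± 0.33 (adjusted p = 0.135, interaction test). For Zik1 the difference of log2 fold changes, SYAT minus CGR8, was -1.54 ± 0.31 (adjusted p = 0.0496). Inhbb had 1119 and 877.3 normalized counts in CGR8 controls, against 51.5 and 91.2 in SYAT controls on the scale of the joint fit, and its log2 fold change was 0.30 ± 0.14 in CGR8 cells. Its difference of log2 fold changes was 1.35 ± 0.23 (adjusted p = 0.0342).

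Zinc finger genes of the KRAB list had a median of 0.22 in CGR8 cells, -0.61 in wtSRCAP and -0.50 in cdSRCAP cells. In the joint fit 8 of 78 were called lower in SYAT, 21 in wtSRCAP and 13 in cdSRCAP. None was called higher in SYAT or wtSRCAP, and 1 was called higher in cdSRCAP (Zfp459). In CGR8 none was called lower and 2 were called higher (Zfp459 and Zfp945). The difference between SYAT and CGR8 was called for 4 of the 78 (Zfp354c, Zfp454, Zfp738 and Zik1), each towards lower values in SYAT. For the IFT, transition zone and BBSome lists the medians were -0.06, 0.14 and 0.06 in CGR8, with 0 genes called in either direction. They were -0.47, -0.50 and -0.54 in wtSRCAP cells and -0.47, -0.43 and -0.60 in cdSRCAP cells.

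Between SYAT and wtSRCAP cells 0 genes passed the test of the difference (800 at an unadjusted p under 0.05), and between SYAT and cdSRCAP cells 0 passed (373 at an unadjusted p under 0.05). This does not show that the responses are alike, since the standard errors allow sizeable differences. Doxycycline, sorting by mCherry and the table also differ between SYAT and the sublines, and their part cannot be told apart from that of the transgene. For Zscan20 the difference of log2 fold changes, SYAT minus wtSRCAP, was -0.38 ± 0.24, and SYAT minus cdSRCAP it was 0.06 ± 0.24. The same differences were 0.27 ± 0.35 and 1.43 ± 0.36 for Tctn3, and 0.07 ± 0.22 and 0.20 ± 0.22 for Zfp423. They were 1.88 ± 0.51 and 1.64 ± 0.53 for Chac1, which changed by -3.91 ± 0.35 in wtSRCAP and by -3.67 ± 0.37 in cdSRCAP cells.

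**Figure D4:**
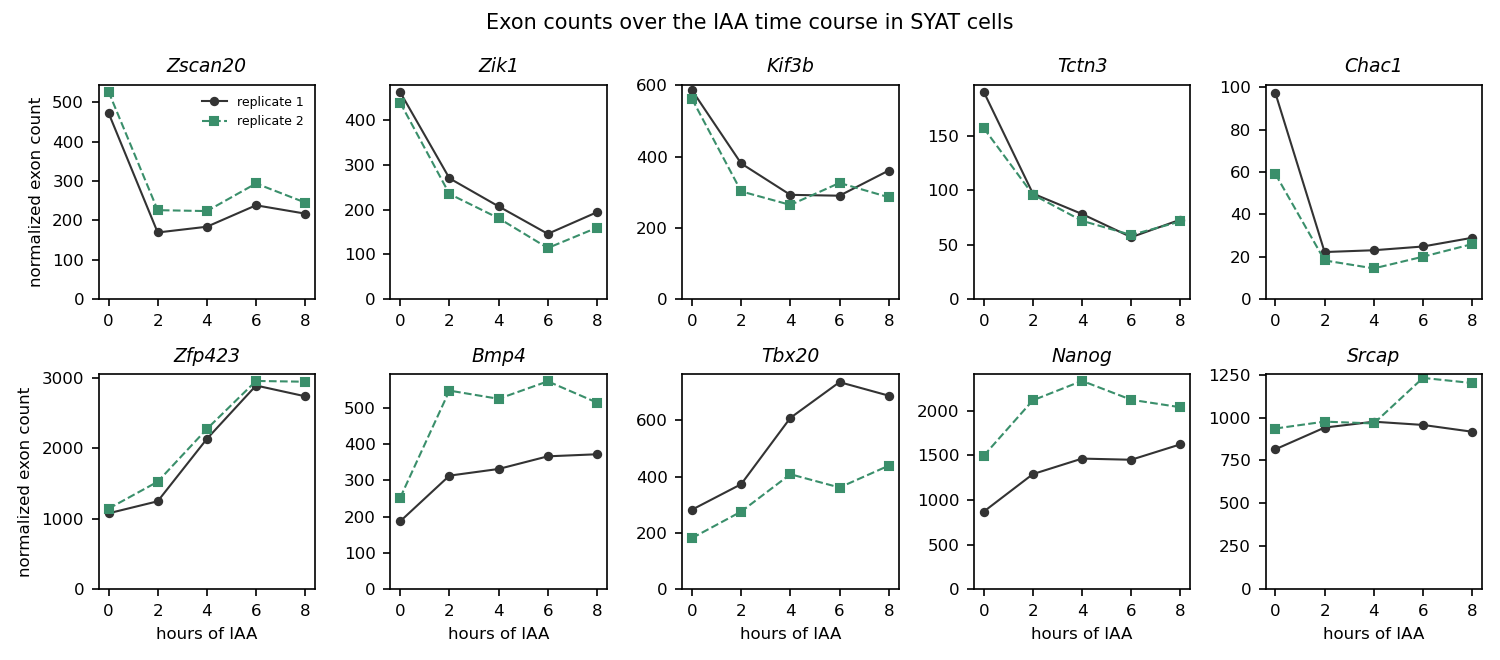
Normalized exon counts of 10 genes against hours of IAA in SYAT cells (0 h is the auxinole control), with replicate 1 as solid lines and replicate 2 as dashed lines. Zscan20, Zik1, Kif3b, Tctn3 and Chac1 have lower counts from 2 h on, though no gene was called at 2 h. Zfp423 goes on to higher counts until 6 h, and Srcap stays between 815 and 1231.

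The 4 h libraries were also set between those of 2 and 6 h. All 49 lower genes had negative log2 fold changes at 2, 6 and 8 h, with medians of -0.60, -0.94 and -0.97 beside -1.01 at 4 h, and all 27 higher genes had positive ones, with medians of 0.59, 1.04 and 1.04 beside 0.99 at 4 h. These contrasts share the control libraries, so their likeness is not independent. Against control in the same fit of 19205 genes, 0 were called at 2 h (smallest adjusted p = 0.0986, edgeR's quasi-likelihood test). At 6 h 498 were called lower and 325 higher, and at 8 h 460 and 174. Zik1 had 269.6 and 234.7 normalized counts at 2 h, 207 and 180.7 at 4 h and 145.8 and 114.2 at 6 h. Zfp423 had 1247 and 1525 at 2 h, 2133 and 2274 at 4 h and 2891 and 2956 at 6 h. Chac1 was already at 22.3 and 18.3 at 2 h, in the range of its 4 h values. No gene was called between 4 h and 2 h (589 at an unadjusted p under 0.05 by edgeR, and 0 calls by DESeq2 as well) or between 6 h and 4 h (1252 at an unadjusted p under 0.05, and 0 calls by DESeq2).

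The intron columns gave fewer calls. Of 14719 genes tested, 0 were called lower (0%) and 1 higher (0.00679%), with 2049 at an unadjusted p under 0.05, while DESeq2 with the replicate block called 187 lower and 192 higher. The counts were 258 and 166 without replicate 2 of 6 h. The columns are named for introns, but they also hold exonic reads: 629 of 1213 single-exon genes (51.9%) had counts in them, and their total was 1.05 times that of the exon columns. They are thus no independent measure of nascent RNA. Of the genes called in the exon columns, 40 of 49 and 25 of 27 were tested in the intron columns, and all had the same sign there and an unadjusted p under 0.05, with medians of -1.05 and 1.13. The 40 include 4 genes whose intron counts step to 0 at 4 h (Disp1, Fam120b, Snx19 and Ttc30a1).

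The gene called in the intron columns was Nol4l, with 0 and 0 normalized counts in controls and 97.6 and 182.2 at 4 h, while its exon columns held 80.7 and 86.9 in controls and 142.1 and 175.6 at 4 h (log2 fold change 0.92 ± 0.19, adjusted p = 0.0703). The opposite step occurred in Disp1, Fam120b, Snx19 and Ttc30a1, which were at 0 in both 4 h intron columns while their exon columns held 78 to 340.3 normalized counts. Disp1, for instance, had 248.2 and 315 in the control intron columns. Zscan20 gave 570.9 and 618.8 in controls and 225.9 and 257.6 at 4 h in the intron columns, a log2 fold change of -1.30 as in the exon columns. Zfp423 gave 2537 and 2935 in controls and 5728 and 9376 at 4 h, a log2 fold change of 1.43.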

How the data were processed

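Nuclear RNA-seq libraries were made with a directional kit. Per the paper's Methods, the authors used STAR for alignment (mm10) and featureCounts with GENCODE vM25. The deposited values are whole-number counts of 55401 genes without normalization, in exon and intron columns, and columns of the authors' own comparisons, which hold log2 fold changes and p-values, were not used. Symbols and coordinates came from GENCODE vM21 (55141 identifiers matched). The members and gene lists were chosen with earlier results of these data known.

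Quasi-likelihood tests of the counts (edgeR 4.0.16, R 4.3.3) ran over all 10 SYAT time course libraries, after filterByExpr by condition (minimum count 10, minimum total 15) and TMM scaling, with Benjamini-Hochberg adjustment and the thresholds given above. Normalized counts are counts divided by the scaled library size, multiplied by the geometric mean of those sizes. Errors are standard errors of the log2 fold change, derived as its absolute value divided by the square root of the quasi-likelihood F statistic. They are approximate, above all where the change is very small. DESeq2 1.42.0 was an alternative. The scripts were tested on simulated counts. Named genes were the 10 called genes of each direction with the largest change, no overlap and a mean of at least 50 normalized counts, called members of each list or else its 2 with the smallest p, the 5 with the smallest p in each direction of a difference between lines, Srcap, and 9 genes named by the study, and other names were chosen after their values were seen. Matched lines were fitted jointly (16 libraries, replicate within table as a block). Control cells received auxinole at a dose given differently in the labels and the Methods, so none is stated here.

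The replicate number was kept as a block because the study's own comparisons were found, in earlier work on these data, to come from a model with a replicate term, which the paper does not name. Deviations from the group means correlated at 0.37 between control and 4 h libraries of the same number, at 0.27 to 0.59 in other pairs of times without 6 h, and at -0.04 to 0.06 in pairs with 6 h, so that the numbers did not pair every time, and the fit without the block is given beside the main counts. Replicates of a group differed by more than sampling noise (chi-square per degree of freedom 27.4 and 43.3 in controls and at 4 h).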

Additional observations from a re-analysis of the deposited data

Results flagged for a closer look

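The response to 4 h of IAA differed between SYAT and CGR8 cells by the interaction test, with a lower log2 fold change in SYAT for 19 genes and a higher one for 5. The 5 genes with the smallest p among the lower were 3 zinc finger genes and Spata7 and CT030661.1. The differences of log2 fold change, SYAT minus CGR8, were -1.57 for Zfp780b, -2.78 for Zfp994, -2.17 for Spata7, -1.38 for Zfp738 and -1.78 for CT030661.1. Each was below 0 in SYAT cells and above 0 in CGR8 cells, with Zfp780b at -0.98 and 0.59, and Zfp994 at -1.70 and 1.08. Zfp994 had 142.1 and 154.7 normalized counts in SYAT controls and 38.7 and 53.1 after IAA, against 48.4 and 67.8 in CGR8 controls and 93.4 and 157.1 after IAA.

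Among the higher, the differences were 1.53 for Slc1a4, 1.35 for Inhbb, 1.06 for Atf4, 1.72 for Fosl2 and 1.01 for Pdzd2. Slc1a4, an amino acid transporter, had log2 fold changes of -0.27 in SYAT and -1.80 in CGR8 cells, where it went from 832.7 and 1046 to 267.3 and 269.6 normalized counts. Atf4 stood at -0.45 in SYAT and at -1.51 in CGR8 cells. For these genes the difference lay in a larger decrease in CGR8 cells, while Fosl2 was at 1.24 in SYAT and -0.47 in CGR8 cells. SYAT and CGR8 libraries come from separate tables with, as recorded, different control treatments, and the part of these was not tested.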

How the results depend on the processing

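Counts of called genes at 4 h depended on the fit, with 2 libraries a group. In the exon columns, beside 49 lower and 27 higher, there were 0 and 0 without the replicate block, 273 and 153 without the low-count filter, 213 and 136 by DESeq2 with the replicate block, 89 lower by DESeq2 without it, 17 higher by DESeq2 with shrunken changes, 1058 and 726 with the 4 libraries only and the block, 824 and 422 without the 6 h libraries, 858 and 409 without replicate 2 of 6 h, and 0 to 0 when 1 of the 4 libraries was left out. In the intron columns, beside 0 and 1, there were 0 higher without the block or any 1 library (0 to 0), 187 and 192 by DESeq2 with the block, 143 and 108 by DESeq2 without it, 63 and 43 with shrunken changes, 592 and 432 with 4 libraries only, 264 and 172 without the 6 h libraries, 258 and 166 without replicate 2 of 6 h, and 1 lower after the exon column was subtracted. Between 6 h and 4 h, 1 gene was higher in the exon columns without the filter and 1 lower in the intron columns by DESeq2. The difference between SYAT and CGR8 cells, 19 and 5 genes, became 0 and 0 without the block, 3 and 3 with DESeq2 size factors, 228 and 63 without the filter, and 0 to 0 with 1 SYAT library left out. SYAT against wtSRCAP cells gave 12 and 1 without the filter, and against cdSRCAP cells 2 lower. The cause of these shifts was not tested.

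Of 91 log2 fold changes of named genes, 26 were called in the main fit, and all 26 lost the call without the block, where no gene was called. The other 65 were called in neither fit and kept their direction. With DESeq2 size factors 89 of the 91 were alike. Of 33 list medians, 13 to 16 moved by more than the spread between replicates when 1 of the 4 libraries was left out, and 0 to 2 moved under the other settings. Signs turned for mt-Cytb (-0.0082 without 4 h replicate 2, and -0.22 to 0.61 with each of the 4 libraries left out in turn) and mt-Nd5 (-0.14 to 0.37), and, after subtracting the exon column from the intron column, for Actr8 (0.44), Mirg (-0.046) and Myc (-0.37), none of them called. The median of all genes was 0.0143 with TMM and 0.0231 with DESeq2 size factors.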
